A study of Mus musculus with 8 samples.

Results

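The genes described here encode the chaperones, disulfide-forming enzymes, stress sensors, transcription factors and degradation factors of the endoplasmic reticulum. They were chosen by name as 35 mouse gene symbols, and all 35 had a row among the 30153 gene identifiers of the deposited table. Their RNA was measured in kidney tissue of C57/BL6 mice, called hypertensive in the series' title, that carry the human angiotensin receptor type 1 gene, in its haplotype II, as a transgene. One group was adult (4 libraries) and the other aged (4 libraries), and animals of both groups were fed a western diet, so neither an untransgenic nor a normal-diet control enters the comparison. The labels give no ages in weeks or months and no promoter for the transgene. The series' design text names 4 animals per group, so each library stands for 1 animal.

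The endoplasmic reticulum is where secreted and membrane proteins are folded. When unfolded proteins accumulate there, sensors in its membrane (IRE1, PERK and ATF6) start the unfolded protein response. IRE1 splices Xbp1 mRNA, ATF6 is cut to release a transcription factor, and PERK phosphorylates eIF2α, which slows translation and favours that of Atf4. Together these branches raise chaperones and the machinery that sends misfolded proteins to the proteasome. Renal tubule cells and podocytes carry a heavy load of membrane and secreted protein, and endoplasmic reticulum stress is much studied in kidney disease.

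Some of these genes share a promoter sequence, the endoplasmic reticulum stress response element (ERSE). It is bound by NF-Y at CCAAT and by ATF6 or XBP1 at CCACG, and was searched on both strands as CCAAT, any 9 bases and CCACG. Promoters came from RefSeq on GRCm38.p6, as 250 bases before to 50 bases after each annotated start, and 31 of the 35 members had one. An ERSE was found for 9 of these 31 genes (29.0%), and in 39 of 32851 promoters of the table (0.119%). The members were chosen as genes of the response that ATF6 and XBP1 take part in, so this share is not independent of their choice. The 9 genes were Hspa5, Hsp90b1, Calr, Canx, Dnajc3, Pdia6, Creld2, Syvn1 and Derl3. A related element, ERSE-II (ATTGG, any 1 base and CCACG), was found for Herpud1 and Dnajb11 and in 12 promoters in all (0.0365%). No member promoter held the unfolded protein response element in the form TGACGTGG, found in 0.676% of promoters. The ATF4 half-site TGATGCAA was found for Chac1 and Herpud1 and in 0.895% of promoters. No gene held both an ERSE and an ERSE-II. Such a match describes letters in a window and not binding. Median GC content was 62.3% in the 32 member promoters and 52.7% in all promoters.

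The matches are printed because they are the stretch by which several of the major chaperones resemble each other. Each runs 5′ to 3′ on the gene's strand with the match in capitals. A match on the opposite strand therefore reads CGTGG first and ATTGG last. The Hspa5 and Dnajb11 matches lie inside a GENCODE exon that starts upstream of, or at, the RefSeq start, and are shown with short flanks.
Hspa5, chr2:34772020-34772048, plus strand: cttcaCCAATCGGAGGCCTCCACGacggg
Hsp90b1, upstream match, chr10:86705618-86705676, minus strand: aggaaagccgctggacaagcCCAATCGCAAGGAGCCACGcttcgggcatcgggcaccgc
Hsp90b1, downstream match, chr10:86705513-86705571, minus strand: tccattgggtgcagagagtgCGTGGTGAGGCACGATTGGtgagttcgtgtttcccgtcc
Calr, chr8:84847055-84847113, minus strand: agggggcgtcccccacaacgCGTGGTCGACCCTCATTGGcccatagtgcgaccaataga
Canx, chr11:50325780-50325838, minus strand: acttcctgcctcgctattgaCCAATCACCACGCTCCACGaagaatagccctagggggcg
Dnajc3, chr14:118937807-118937865, plus strand: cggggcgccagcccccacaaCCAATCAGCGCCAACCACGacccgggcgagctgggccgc
Pdia6, chr12:17266471-17266529, plus strand: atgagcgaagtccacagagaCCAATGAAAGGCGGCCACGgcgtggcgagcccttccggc
Creld2, chr15:88819500-88819558, plus strand: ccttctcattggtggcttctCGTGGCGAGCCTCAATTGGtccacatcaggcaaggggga
Syvn1, chr19:6046512-6046570, plus strand: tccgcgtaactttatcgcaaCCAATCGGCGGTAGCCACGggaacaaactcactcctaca
Derl3, chr10:75893222-75893280, plus strand: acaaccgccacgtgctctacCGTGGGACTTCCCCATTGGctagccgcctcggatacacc
Herpud1 (ERSE-II), chr8:94386357-94386407, plus strand: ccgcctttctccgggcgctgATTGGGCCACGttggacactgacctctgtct
Dnajb11 (ERSE-II), chr16:22857847-22857867, plus strand: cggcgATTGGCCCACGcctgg

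**Figure D1:**
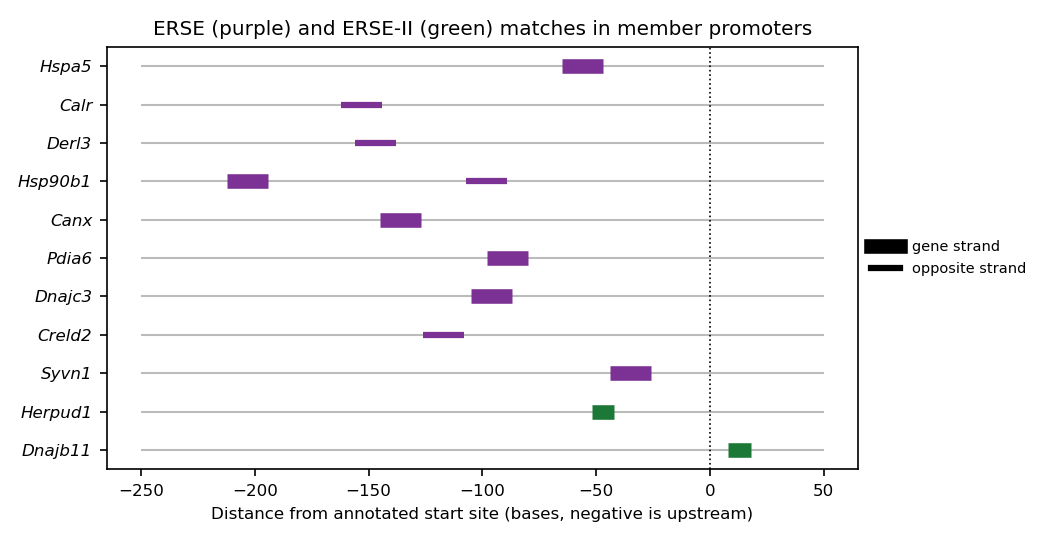
Position of ERSE (purple) and ERSE-II (green) matches in member promoters, as distance in bases from the annotated start site. Thick bars are matches on the gene's strand and thin bars on the opposite strand. Hsp90b1 is the only gene shown with 2 matches, and the Dnajb11 match lies just after its start.

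The 8 libraries differed from each other in ways that touch every value below. Totals ran from 924798 to 950974 TPM (a relative abundance, corrected for transcript length, that is scaled to 1 fixed total per library), and TPM keeps no read depth. Mitochondrially encoded genes took 19.6% to 26.1% of the TPM scale in adult and 26.8% to 46.9% in aged libraries. Adult replicate 1 held the highest value of 45.8% of the 11796 genes tested, and aged replicate 3 the lowest of 43.0%. Size factors (the median ratio of a library to the geometric mean of all) were 1.49 in adult replicate 1, 1.31 in aged replicate 2, 0.730 in adult replicate 3 and 0.685 in aged replicate 3. Values are therefore also given after division by these factors. Y-linked transcripts, a split that the labels do not name, summed to 34.7 to 50.6 TPM in replicates 3 and 4 of both groups and to at most 2.30 TPM in replicates 1 and 2. All kidney markers of proximal tubule, thick ascending limb, distal nephron, podocytes and endothelium were above 0 in every library.

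Levels of the members spread over a wide range. On average 8 members were above 100 TPM, 16 were between 10 and 100 TPM, 8 between 1 and 10 TPM, and 3 (Trib3, Chac1 and Derl3) under 1 TPM. The highest were Calr (364 TPM over all libraries), P4hb (223 TPM), Hspa5 (184 TPM), Pdia3 (165 TPM) and Hsp90b1 (158 TPM). The sensors Ern1 (2.54 TPM), Eif2ak3 (6.17 TPM) and Atf6 (6.30 TPM) stood below all 9 chaperones, of which Sdf2l1 (12.3 TPM) and Hyou1 (12.6 TPM) were the lowest. Among the disulfide enzymes Pdia6 (2.92 TPM) and Ero1l (7.15 TPM) lay in the range of the sensors or just above it. A mean of at least 1 TPM over the 8 libraries was required for testing, and 32 of the 35 members met it.

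Among the chaperones, no age difference was larger than the spread between animals. Hspa5 encodes BiP, the Hsp70 chaperone that holds the sensors inactive (GRCm38, chromosome 2, 34771970 to 34777547, plus strand). In adult replicates 1 to 4 it had 249, 136, 80.9 and 195 TPM, and in aged replicates 1 to 4 it had 155, 327, 125 and 208 TPM. The aged range covered most of the adult range, with aged replicate 2 the highest library and adult replicate 3 the lowest. Group means were 165 ± 72.8 TPM among adult animals against 204 ± 89.4 TPM among aged ones (SD, n = 4 each). The log2 fold change, on the log2(TPM + 1) scale, was 0.32 (SE 0.38, 95% interval −0.52 to 1.16, limma adjusted p = 1.00). After division by size factors it was 0.42 (SE 0.25, interval −0.14 to 0.99, limma adjusted p = 0.777).

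Hsp90b1 encodes GRP94, the Hsp90 of the endoplasmic reticulum (chromosome 10, 86690209 to 86705509, minus strand). It had 244, 115, 71.8 and 149 TPM in adult replicates 1 to 4 and 133, 276, 103 and 169 TPM in aged replicates 1 to 4. The order of the 8 libraries was that of Hspa5. Of the 31-base words in its transcripts 12.3% also occurred, on either strand, in another gene's, 1810014B01Rik above all. Words on the same and on the opposite strand were not counted apart, so part of its reads may be shared. The same holds for Dnajb9 (10.8%), Derl1 (8.60%), Manf (7.25%) and Eif2ak3 (6.78%), whose values are less certain for that reason.

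Calreticulin (Calr) and calnexin (Canx) bind the sugar chains of newly made glycoproteins. Calr, on chromosome 8 at 84841850 to 84846934, minus strand, had 556, 285, 191 and 368 TPM in the adult replicates 1 to 4, and 277, 678, 194 and 363 TPM in the aged replicates. Canx, on chromosome 11 at 50293961 to 50325673, minus strand, had 205, 87.8, 68.6 and 118 TPM in the adult replicates 1 to 4, and 90.4, 205, 72.7 and 130 TPM in the aged replicates. For both genes adult replicate 1 and aged replicate 2 were high and replicate 3 of either group was low, so that the groups overlapped almost fully. Log2 fold changes were 0.06 (interval −0.83 to 0.95) for Calr and 0.07 (−0.79 to 0.92) for Canx.

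Hyou1, a large Hsp70-like nucleotide exchange factor of BiP, ranged from 4.39 TPM in adult replicate 3 to 22.0 TPM in aged replicate 2, a 5.01-fold span. The BiP co-chaperones Dnajb9, Dnajb11 and Dnajc3 spanned less, by 1.72, 2.14 and 2.65 times between lowest and highest library. Sdf2l1, a luminal protein that works with Dnajb11, had 12.3 ± 3.35 TPM among adult animals against 12.3 ± 4.45 TPM among aged ones (SD, n = 4 each). Of the 9 chaperones and co-chaperones 0 passed the test. As deposited 8 of the 9 fold changes were positive, with a median of 0.13, and with size factors all 9 were (median 0.23).

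**Figure D2:**
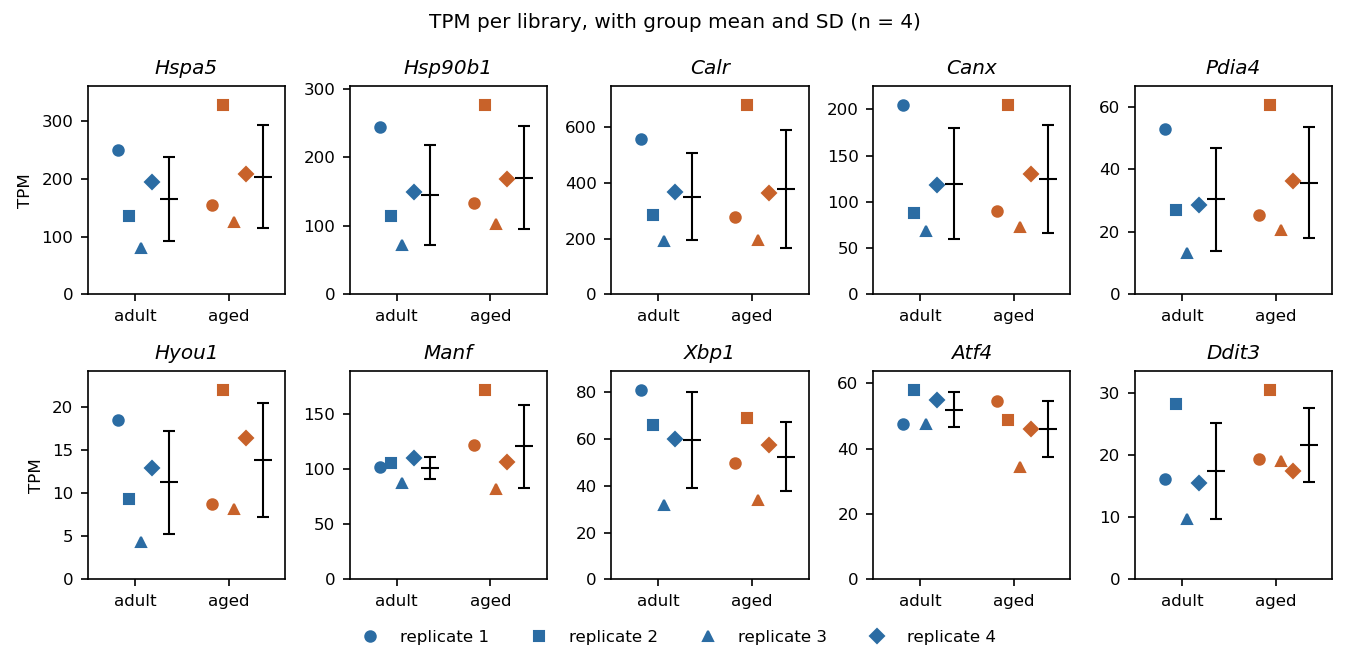
TPM of 10 members in each library, adult in blue and aged in orange, with the marker shape giving the replicate number and the bar the group mean and SD (n = 4). Aged replicate 2 (orange square) lies highest for Hspa5, Hsp90b1, Calr, Pdia4, Hyou1, Manf and Ddit3, and the groups overlap in every panel.

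Of 5 enzymes that form disulfide bonds 0 passed the test. P4hb encodes protein disulfide isomerase, and it had 323, 240, 169 and 222 TPM in the adult replicates 1 to 4, and 172, 302, 117 and 238 TPM in the aged replicates. Its log2 fold change of −0.25 (SE 0.32, limma adjusted p = 1.00) was the lowest of all members. Pdia3, the isomerase that works with calnexin and calreticulin, had 166 ± 56.5 TPM among adult animals against 163 ± 57.5 TPM among aged ones, and Pdia4 30.5 ± 16.5 and 35.8 ± 17.8 TPM (SD, n = 4 each). Ero1l, the oxidase that recharges the isomerases, had 7.11 ± 3.24 TPM among adult animals against 7.19 ± 2.52 TPM among aged ones (SD, n = 4 each).

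In the deposited values Pdia6 stood apart from the other isomerases in level and pattern. The annotation behind these values is not given in the sources used here, so whether its transcripts were fully counted is unknown, and every Pdia6 value here carries that limit. It had 3.43, 3.83, 2.53 and 0.845 TPM in the adult replicates 1 to 4, and 7.23, 4.27, 0.345 and 0.833 TPM in the aged replicates. That is a 21.0-fold span, the widest among the 32 members tested, where P4hb spanned 2.76-fold. Its mean of 2.92 TPM compared with 33.2 TPM for Pdia4 and 165 TPM for Pdia3. Of the 31-base words in its annotated transcripts 0.535% occurred in another gene's. Its fold change with age was −0.10 (SE 0.55, interval −1.31 to 1.12).

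Manf and Creld2 encode small proteins that are retained with the chaperones and released under stress. Manf had 102, 106, 87.1 and 110 TPM in the adult replicates 1 to 4. In the aged replicates it had 122, 172, 82.4 and 107 TPM, with aged replicate 2 the highest library. After size factors Manf had 131 in aged replicate 2, 120 in aged replicates 1 and 3, and its lowest value, 68.95, in adult replicate 1. Creld2 had 20.9, 16.6, 11.1 and 22.6 TPM in the adult replicates 1 to 4, and 21.4, 30.8, 14.6 and 23.2 TPM in the aged replicates. Its log2 fold change was 0.32 (SE 0.30) as deposited. With size factors Creld2 was the only member with an unadjusted limma p under 0.05 (0.0448, adjusted p = 0.706), at a log2 fold change of 0.42 (interval 0.01 to 0.83). The aged values then lay between 21.0 and 23.6, and 3 adult libraries between 14.1 and 15.2 with adult replicate 4 at 23.6. For all genes 6.89% had such a p with size factors.

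Of 5 sensors and transcription factors 0 passed, with log2 fold changes from −0.18 (Atf4) to 0.12 (Atf6). Ern1, which encodes IRE1α, had 2.67 ± 1.43 TPM among adult animals against 2.42 ± 1.07 TPM among aged ones (SD, n = 4 each). Eif2ak3, which encodes PERK, had 6.27 ± 3.16 and 6.07 ± 2.66 TPM, and Atf6 6.09 ± 3.01 and 6.50 ± 2.31 TPM (SD, n = 4 each). Adult replicate 1 was the highest library for these sensors and for Xbp1, 4 of the 5 genes of this class, and for 45.8% of all genes. After size factors it stayed so for Ern1 only. Eif2ak3 and Atf6 were then highest in aged replicate 2 and Xbp1 in adult replicate 4. Xbp1, on chromosome 11 at 5520659 to 5525893, plus strand, had 81.0, 65.9, 31.8 and 60.0 TPM in the adult replicates 1 to 4, and 49.7, 69.0, 33.7 and 57.5 TPM in the aged replicates. Gene-level values hold no information on its splicing, so the active form was not measured. Atf4 had the narrowest span of all members tested, from 34.5 TPM in aged replicate 3 to 58.0 TPM in adult replicate 2, a 1.68-fold range. Its log2 fold change was −0.18 (interval −0.69 to 0.32).

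Of 3 ATF4 targets tested 0 passed, 2 with positive and 1 with a negative fold change. Ddit3 encodes CHOP, a transcription factor of the late, pro-apoptotic phase of the response (chromosome 10, 127290774 to 127296288, plus strand). It had 16.2, 28.3, 9.80 and 15.6 TPM in the adult replicates 1 to 4, and 19.4, 30.5, 19.1 and 17.5 TPM in the aged replicates. Its log2 fold change of 0.35 (SE 0.33, interval −0.36 to 1.06, limma adjusted p = 1.00) was the highest of the members, yet adult replicate 2 lay above 3 of the aged libraries. Ppp1r15a (GADD34), which reverses eIF2α phosphorylation, had 8.41 ± 4.29 and 6.66 ± 1.71 TPM, adult before aged (SD, n = 4 each). Asparagine synthetase (Asns) had 2.63 ± 2.05 and 2.51 ± 0.902 TPM (SD, n = 4 each). In both of these genes adult replicate 1 was the highest library. Immediate early transcripts, which can rise within minutes of handling, summed to 107 TPM in adult replicate 1, 176 and 105 TPM in aged replicates 3 and 4, and 29.1 to 48.5 TPM in the others. Their part in the values of Ddit3 and Ppp1r15a was not tested. Trib3 (0.163 to 0.573 TPM) and Chac1 (0.119 to 0.925 TPM) were too low for the test.

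Members of the degradation pathway, which pulls misfolded proteins back into the cytosol for the proteasome, gave 0 calls among 8 tested. Herpud1, a scaffold of the retrotranslocation complex, had 144, 117, 67.8 and 120 TPM in the adult replicates 1 to 4, and 138, 227, 71.4 and 93.3 TPM in the aged replicates. Aged replicate 2 was again the highest library and adult replicate 3 the lowest. Sel1l and the ubiquitin ligase Syvn1 (HRD1), which form the core ligase complex, had 10.5 ± 4.39 and 6.25 ± 3.85 TPM among adult animals against 12.9 ± 4.31 and 7.35 ± 3.19 TPM among aged ones (SD, n = 4 each). Edem1, which trims glycans of misfolded proteins, had 10.4 ± 3.80 and 11.5 ± 4.46 TPM (SD, n = 4 each). The channel proteins Derl1 and Derl2 had log2 fold changes of −0.18 and 0.02, and Selenos, a selenoprotein that binds derlins, had −0.22. The lectin Os9 had the widest span among the tested members of this class, from 10.5 TPM in adult replicate 3 to 75.1 TPM in adult replicate 1, a 7.14-fold range within 1 group. Derl3 had 0.401 TPM in adult replicate 1 and at most 0.00274 TPM in any other library.

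Of all 32 members tested 0 passed for age in either direction (limma, Benjamini-Hochberg adjusted p under 0.05). The background was 0% of 11796 genes. At an unadjusted p under 0.05 there were 0 members as deposited, against 3.39% of all genes. The groups did not overlap for 0 members, against 2.46% of all genes. With size factors these counts were 1 (6.89% of all genes) and 0 (5.02%), and still 0% of all genes passed the adjusted threshold. Fold changes of the members ran from −0.25 (P4hb) to 0.35 (Ddit3) as deposited, and all 32 intervals held 0. The intervals reached as low as −1.32 (Os9) and as high as 1.25 (Hyou1). Their widths ran from 1.01 to 2.44, so the size of change left within the interval differed between members. The narrowest was that of Atf4, −0.69 to 0.32. With size factors the median SE of the members fell from 0.34 to 0.23.

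How many members had positive fold changes depended on the scaling, while the distance of their median from that of all genes moved less. As deposited 20 members had positive and 12 negative fold changes, with a median of 0.06, where all genes had a median of −0.11 and 65.0% negative. With size factors 24 were positive (median 0.17, all genes −0.02), with quantile normalization 28 (median 0.23, all genes 0.00464), and with mitochondrial genes removed all 32 (median 0.33, all genes 0.14). Of all genes 52.7%, 49.2% and 31.5% were negative on these scales in turn. The member median exceeded that of all genes by 0.17 as deposited, and by 0.19, 0.22 and 0.19 on the later scales. No test was made of this gap. Without aged replicate 2 the member median was −0.13, and without adult replicate 3 it was −0.10. Without adult replicate 1 it was 0.29, and without aged replicate 3 it was 0.23. Members with an ERSE had a median of 0.22 (8 tested, 7 positive) and those with a promoter but no ERSE a median of 0.00183 (20 tested, 10 positive). With size factors the medians were 0.32 (7 positive) and 0.0985 (14 positive), a difference that was not tested. Herpud1 and Dnajb11, which hold an ERSE-II, were counted among those without an ERSE. Aged replicate 2 was the highest library for 6 of the 8 and for 7 of the 20, so this 1 library weighs on the contrast. Median levels of these genes also differed, at 79.6 and 26.3 TPM.

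**Figure D3:**
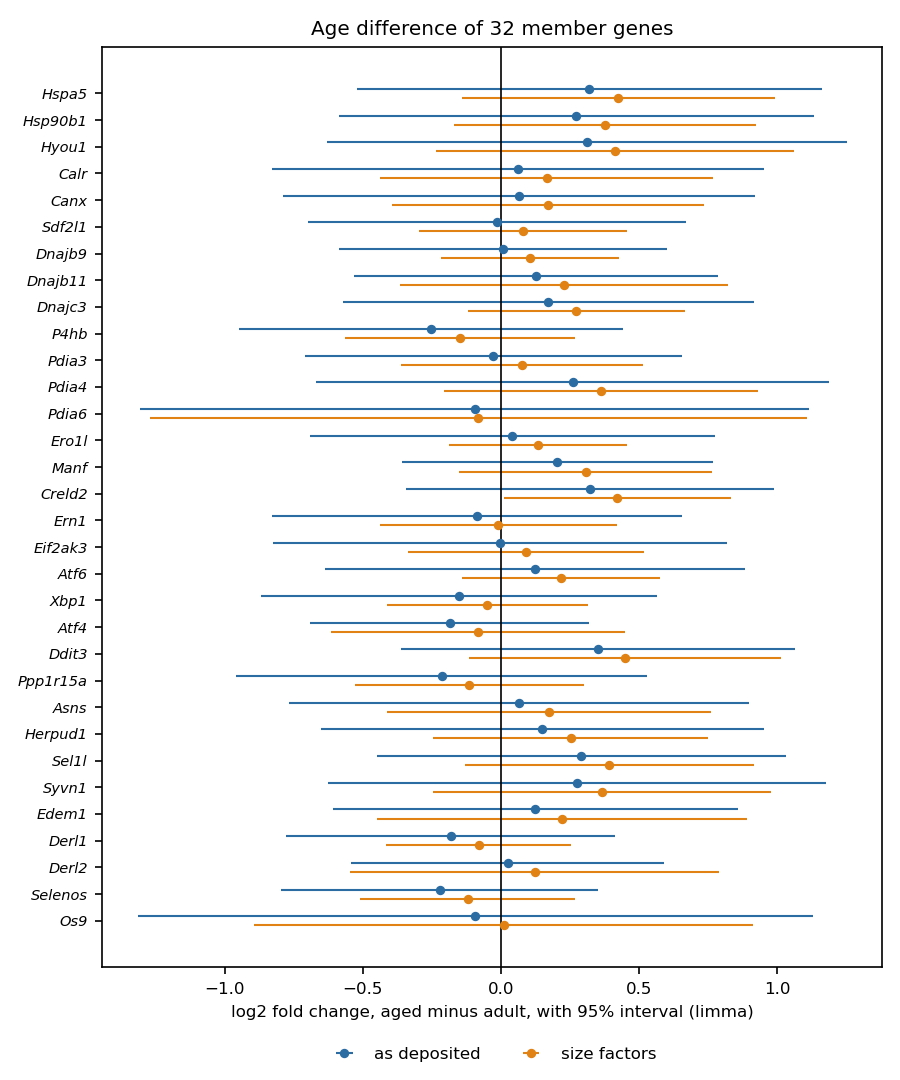
Log2 fold change of the 32 tested members, aged minus adult, as points with 95% intervals from limma, as deposited (blue) and after size factors (orange). Every interval as deposited crosses 0, and with size factors all but that of Creld2 do.

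Most members, like most genes, shared the libraries in which they were highest and lowest as deposited, but the order differed between roles. Adult replicate 1 or aged replicate 2 was the highest library for 26 of the 32 members (81.2%), and for 63.7% of all genes tested. Aged replicate 2 was highest for 7 of the 9 chaperones and for 0 of the 5 sensors and transcription factors. Adult replicate 1 was highest for 1 and 4 of them. Of all genes, aged replicate 2 was highest for 17.8% and adult replicate 1 for 45.8%. Replicate 3 of either group was the lowest for 30 members (93.8%), and for 72.2% of all genes. These libraries were picked after their values were seen. After size factors the median over all genes lay between −0.02 and 0.01 in every library. Aged replicate 2 was then still the highest library for 14 members (43.8%), where it was so for 11.0% of all genes. Among them were the chaperones Hspa5, Hsp90b1, Hyou1, Calr, Canx and Sdf2l1, and now also the sensors Eif2ak3 and Atf6. Ern1 was then highest in adult replicate 1, Xbp1 in adult replicate 4 and Atf4 in adult replicate 3, so the contrast between these roles was smaller. Replicate 3 of either group was then the lowest for 11 members (34.4%), close to the 28.9% of all genes. The median difference of the members from their own means was then 0.28 in aged replicate 2, 0.17 in aged replicate 4 and 0.12 in adult replicate 4, and −0.23 in adult replicate 3 and −0.20 in adult replicate 2. For the chaperones alone it ran from −0.43 in adult replicate 2 to 0.48 in aged replicate 2. In aged replicate 2 the other roles had less, with 0.28 for Manf and Creld2 and 0.24 for the disulfide enzymes. There the sensors and transcription factors had 0.21, the degradation genes 0.09 and the ATF4 targets 0.03. Hspa5 had 249 after size factors in aged replicate 2 and 111 in adult replicate 3, a 2.25-fold range against 4.04-fold as deposited.

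**Figure D4:**
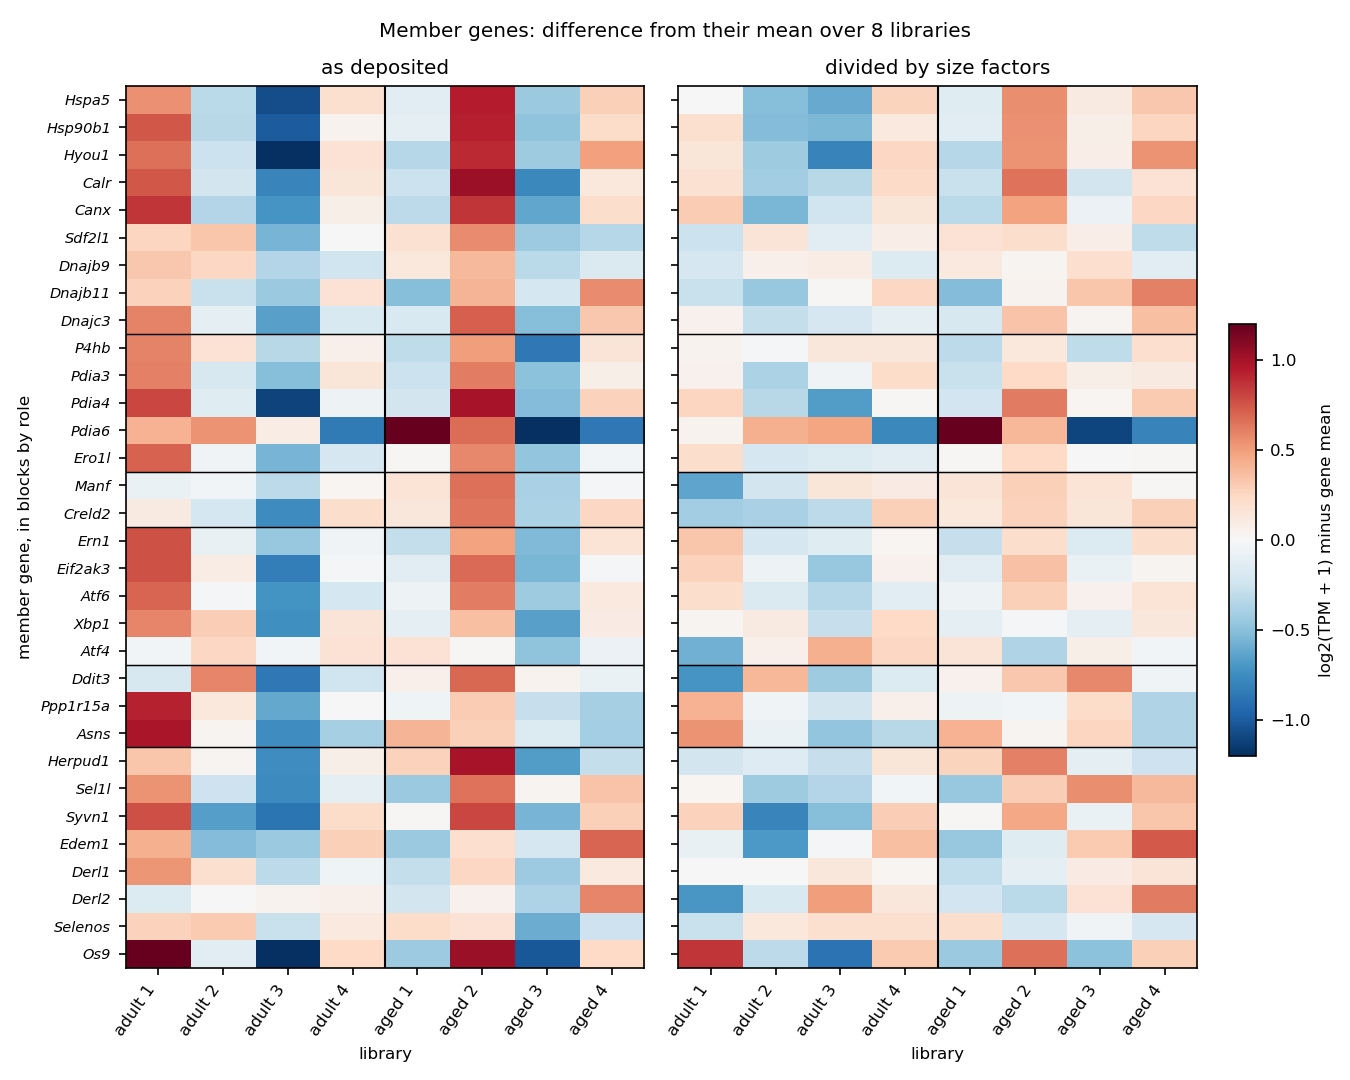
Difference of log2(TPM + 1) from each gene's mean over 8 libraries for the 32 tested members, in blocks by role, as deposited and after size factors, with colours saturating at 1.2 either way. Aged replicate 2 is high over the chaperones as deposited and over most of them after size factors, and Pdia6 departs from the pattern of its block.

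**Figure D5:**
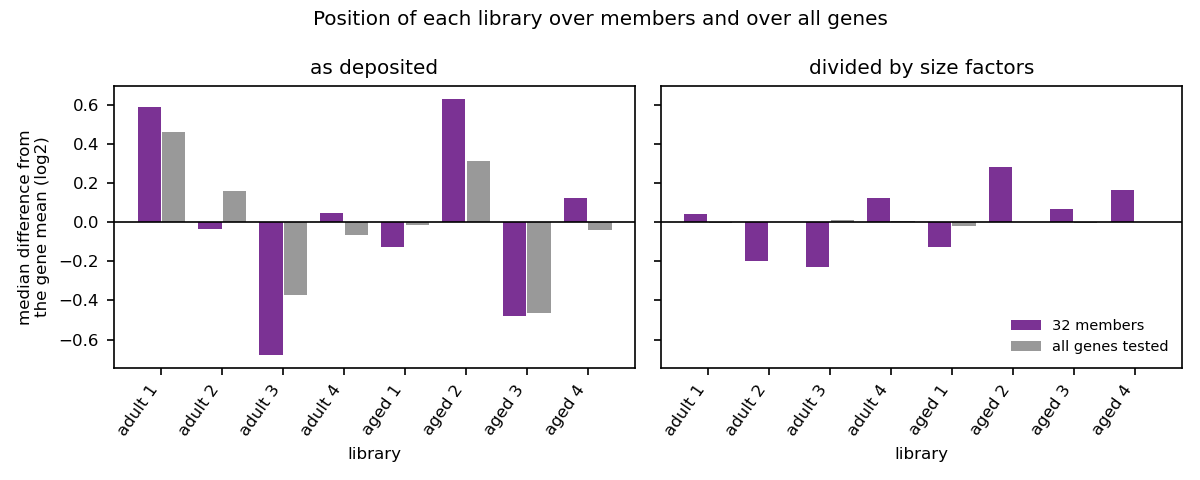
Median difference from the gene mean in each library, over the 32 members (purple) and over all 11796 genes tested (grey). As deposited both are highest in adult replicate 1 and aged replicate 2 and lowest in replicate 3 of each group, and after size factors the grey bars lie near 0 while the members still range from −0.23 to 0.28.

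Markers of some cell types were also highest in adult replicate 1 and aged replicate 2, and others were not. Their values are given as deposited, where adult replicate 1 or aged replicate 2 was the highest library for 63.7% of all genes. Podocyte markers (5 of 5 above 0 in every library) summed to 125, 70.0, 42.0 and 80.2 TPM in the adult replicates 1 to 4. In the aged replicates they summed to 76.5, 156, 42.2 and 108 TPM, the same order over the 8 libraries as Hspa5. After size factors Hspa5 had another order, with adult replicate 4 (203) above adult replicate 1 (168), and podocyte sums on that scale were not compared. Markers of the thick ascending limb, whose cells secrete uromodulin, summed to 367 to 1999 TPM in adult and 242 to 1849 TPM in aged libraries. They were highest in adult replicate 1 and aged replicate 2 as well. The proximal tubule sum ran otherwise, from 23730 to 74480 TPM in adult and 14600 to 60240 TPM in aged libraries, and was highest in replicates 3 and 4 of both groups. Kap, which gave 71490 of the 74480 TPM in adult replicate 3, set that order of the sum. Among adult libraries every other proximal tubule marker was highest in replicate 1, such as Lrp2 (96.4 TPM). Among aged libraries these other markers were highest in replicate 2 (Lrp2 83.3 TPM), except Slc22a6, highest in aged replicate 4 (159 TPM). Macrophage and fibroblast sums were highest in aged replicate 1, at 298 and 40.7 TPM. Lyz2 gave 215 of the 298 TPM and set that order of the macrophage sum. The macrophage markers Adgre1, Csf1r, C1qa and C1qb were highest in adult replicate 1, and Cd68 in adult replicate 2. B and plasma cell markers, of cells rich in endoplasmic reticulum, summed to 55.4 to 249 TPM in adult and 184 to 610 TPM in aged libraries, highest in aged replicate 4 rather than aged replicate 2. Of these 10 markers 7 were above 0 in every library. Of 5 markers of exocrine pancreas, a chaperone-rich tissue, 4 were at 0 in all libraries and Cela2a reached 0.715 TPM in aged replicate 1 only. Cytosolic heat shock genes summed to 780 to 1267 TPM in adult and 862 to 1286 TPM in aged libraries. The part of podocyte, tubule and plasma cell RNA in the members' values was not tested. In bulk kidney tissue, more cells of a type and more RNA per cell cannot be told apart.

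Between libraries with and without Y-linked transcripts, with age as a covariate, 1 of the 32 members passed (Pdia6), against 12.4% of all genes. Pdia6 had 1.14 ± 0.955 TPM in the 4 libraries with and 4.69 ± 1.73 TPM in the 4 without such transcripts (SD, n = 4 each), with no overlap. Its log2 difference was −1.46 (SE 0.33, limma adjusted p = 0.0249). The call was lost with size factors (−1.10, limma adjusted p = 0.165), with quantile normalization and without aged replicate 2 or aged replicate 3. Over the members 29 of 32 differences were negative, with a median of −0.52, where all genes had −0.46. With size factors the medians were 0.00681 and 0.01, and 0 members passed against 5.43% of all genes. Derl2, Edem1 and Dnajb11 were then the members furthest upward, at 0.72, 0.69 and 0.60 (limma adjusted p = 0.0558, 0.0852 and 0.0871). The groups did not overlap for 5 members as deposited (Sdf2l1, Dnajb9, Pdia6, Asns and Selenos), against 22.6% of all genes, and for 3 with size factors, against 12.7%. Of the other pathway genes 8 passed, all lower with Y-linked transcripts, namely Txndc5, Ppib, Phgdh, Eif2ak4, Gpt2, Man1b1, Creb3 and Creb3l1. With size factors only Gpt2 (−0.66, limma adjusted p = 0.0414) and Creb3l1 (−0.97, adjusted p = 0.0283) of them did.

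The age difference itself was not shown to depend on this split for any member. The interaction of age and class had 0 members past the threshold, against 0.0339% of all genes (4 genes), and 0 with an unadjusted p under 0.05, against 2.08%. Its largest value was that of Pdia6, −1.21 on the log2 scale (SE 0.57, limma adjusted p = 1.00).

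Other genes of the pathway, 83 in 4 further lists, gave 74 tested genes, of which 0 passed for age in either direction. As deposited 1 of them (Prdx4) had an unadjusted limma p under 0.05, against 3.39% of all genes. The median fold change of the 74 was −0.07 as deposited and 0.01 with size factors. Folding factors outside the members gave no call. Of 24 tested, 17 were negative as deposited (median −0.17), 13 with size factors (median −0.07) and 10 with mitochondrial genes removed (median 0.10). Over all genes 65.0%, 52.7% and 31.5% were negative in turn. Prdx4 encodes the peroxiredoxin of the endoplasmic reticulum, which uses hydrogen peroxide to oxidise the isomerases. It had 53.3, 56.2, 59.9 and 53.6 TPM in the adult replicates 1 to 4, and 36.3, 40.5, 32.8 and 31.8 TPM in the aged replicates. Every aged library was below every adult one as deposited, a lack of overlap found for 2.46% of all genes. The log2 fold change was −0.65 (SE 0.21, limma adjusted p = 1.00, and 0.731 with size factors). After division by size factors the groups of Prdx4 overlapped, and 0 folding factors of this list had an unadjusted limma p under 0.05. Erp29 and Cnpy2, luminal folding factors, had adult means of 142 and 146 TPM and aged means of 106 and 115 TPM.

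Of 19 tested genes of the wider stress response to eIF2α phosphorylation, 12 had positive fold changes as deposited (median 0.01), 13 with size factors and 18 with mitochondrial genes removed. Over all genes 65.0%, 52.7% and 31.5% were negative in turn, which holds beside the counts below as well. Atf3, a transcription factor downstream of ATF4, had 1.32 ± 0.659 and 2.01 ± 0.747 TPM, and Gdf15, a secreted stress hormone, 1.65 ± 1.33 and 2.40 ± 1.24 TPM, adult before aged (SD, n = 4 each). The initiation factor subunit Eif2s1 had 18.9 ± 3.38 and 15.8 ± 0.504 TPM (SD, n = 4 each). Of 20 further degradation genes 12 were negative as deposited, where 65.0% of all genes were, 9 with size factors and 2 with mitochondrial genes removed. The smallest p-values were those of Erlec1, Edem2 and Rnf5, with log2 fold changes of −0.46, −0.32 and −0.23. Of 11 further sensors and transcription factors 7 were negative as deposited, 6 with size factors and 3 with mitochondrial genes removed. There the smallest p-values were those of Creb3 and Atf6b with log2 fold changes of −0.47 and −0.27 and the protease gene Mbtps2, whose product cuts ATF6, at 0.36. None of these passed (limma adjusted p = 1.00 for each).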

How the data were processed

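The authors deposited TPM for 30153 mouse gene identifiers in 8 kidney libraries. Per the submitters' processing notes kallisto, DESeq2 and GRCm38 were used, with roles and versions not given in the sources used here, and per the labels' protocols libraries were stranded and made from polyadenylated RNA. Identifiers were paired with symbols for 29732 of 30153 rows, and rows sharing a symbol were summed. Aged and adult libraries were compared on the log2(TPM + 1) scale with limma (version 3.58.1, R version 4.3.3), its prior variance following intensity. That is a scale that understates changes of low genes. Genes needed a mean of at least 1 TPM, and p-values were Benjamini-Hochberg adjusted over all 11796 genes at 0.05. Depth is unknown, so no counting interval was computed. Libraries with a summed 10 TPM or more of Ddx3y, Kdm5d, Eif2s3y and Uty formed the class with Y-linked transcripts. Promoters came from RefSeq and gene positions from GENCODE M21, both on GRCm38. Shared sequence was counted in 31-base words of GENCODE transcripts, on either strand. Members, lists and the Y-linked split were chosen with earlier results of these data known. Every member was named. Of the other pathway lists, up to 3 genes with the smallest p each were named. The model was tested on simulated data. Replicate numbers did not pair the libraries. Alternatives were other pseudocounts, filters and scalings, no trend, a replicate block, the Y-linked class as a covariate or subset, and each library left out.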

Additional observations from a re-analysis of the deposited data

Results flagged for a closer look

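In groups of 4 libraries the highest or lowest value was checked for its distance from the others, which chance exceeds in about 1 in 20 groups. Of 82 groups checked 3 stood out, no more than that rate would give. Ddit3 had 30.51 TPM in aged replicate 2, where the other aged libraries had 17.46 to 19.37 TPM. Derl3 had 0.4013 TPM in adult replicate 1, where the other adult libraries had at most 0.002739 TPM. Derl3 also had 0.001486 TPM in aged replicate 2, where the other aged libraries were listed at 0. Both Derl3 values are too low for a comparison.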

How the results depend on the processing

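No member passed the age test under any alternative, and 0 of 637 member values gained a call. The count over all genes was 0, but 3 when fitted only without and 16 when fitted only with the Y-linked libraries, and 0 to 2 with a library left out. With a library left out the member median ranged from −0.13 (without aged replicate 2) to 0.29 (without adult replicate 1), and it was 0.33 with mitochondrial genes removed. The 1464 genes that differed with Y-linked transcripts became 762 with no filter, 640 with size factors, 633 with quantile normalization, 706 without mitochondrial genes, and 392 to 1953 with a library left out. The 1 member among them (Pdia6) became 0 with size factors, quantile normalization, no filter, or the minimum raised to 5 TPM (where Pdia6 is not tested), and 0 to 1 with a library left out. The interaction count of 4 became 0 with no filter and 2 with size factors, and 1 to 16 with a library left out. The cause of these shifts was not tested. Only Hspa5, Creld2, Ddit3 and Syvn1 kept the sign of their log2 fold change in every alternative run. Signs turned 58 times with a library left out and 43 times otherwise. With a pseudocount of 0.1 Eif2ak3 turned, to 0.0049. With a pseudocount of 5 Pdia6 turned, to 0.027. The log2 fold changes that turned with size factors were Sdf2l1 0.081, Pdia3 0.076, Eif2ak3 0.091 and Os9 0.0098. The log2 fold changes that turned with quantile normalization were Sdf2l1 0.11, P4hb 0.020, Pdia3 0.25, Eif2ak3 0.052, Xbp1 0.072, Atf4 0.064, Selenos 0.0016 and Os9 0.057. The log2 fold changes that turned with mitochondrial genes removed were Sdf2l1 0.26, P4hb 0.036, Pdia3 0.26, Pdia6 0.026, Ern1 0.12, Eif2ak3 0.25, Xbp1 0.13, Atf4 0.099, Ppp1r15a 0.042, Derl1 0.099, Selenos 0.061 and Os9 0.19. The log2 fold changes that turned with only the libraries without Y-linked transcripts were Sdf2l1 0.081, Dnajb9 −0.026, Dnajb11 −0.057, Pdia6 0.51, Ero1l −0.041, Atf6 −0.066, Asns −0.15, Sel1l −0.043, Edem1 −0.076 and Derl2 −0.0099. The log2 fold changes that turned with only the libraries with Y-linked transcripts were Manf −0.062, Ern1 0.068, Eif2ak3 0.14, Xbp1 0.011, Herpud1 −0.14, Derl1 0.023 and Os9 0.15. Lowest and highest log2 fold changes with a library left out, for members that turned, were −0.015 to 0.57 for Hsp90b1, −0.036 to 0.58 for Hyou1, −0.27 to 0.33 for Calr, −0.21 to 0.36 for Canx, −0.21 to 0.13 for Sdf2l1, −0.12 to 0.12 for Dnajb9, −0.041 to 0.32 for Dnajb11, −0.039 to 0.40 for Dnajc3, −0.24 to 0.17 for Pdia3, −0.067 to 0.57 for Pdia4, −0.55 to 0.32 for Pdia6, −0.14 to 0.29 for Ero1l, −0.26 to 0.15 for Ern1, −0.28 to 0.25 for Eif2ak3, −0.096 to 0.38 for Atf6, −0.42 to 0.041 for Xbp1, −0.46 to 0.059 for Ppp1r15a, −0.17 to 0.40 for Asns, −0.15 to 0.40 for Herpud1, −0.085 to 0.30 for Edem1, −0.17 to 0.15 for Derl2 and −0.55 to 0.36 for Os9. Adult and aged libraries of the same replicate number correlated at 0.04, 0.18, 0.49 and 0.42 in their deviations from the group means, and aged replicates 1 and 2 correlated best with adult replicates 2 and 1, so the numbers were not taken as pairs. With the replicate number as a block 0 genes and 0 members passed, and the member median was 0.06. With 4 libraries a group and no read depth in TPM, the intervals of single members limit what can be said.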
